A study of Mus musculus with 6 samples.

Results

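The interferon-stimulated genes are a set of 39 listed mouse genes that interferons induce, chosen by name: antiviral effectors, nucleic acid sensors, transcription factors with their feedback, immunity GTPases, antigen-processing genes and other inducible genes. Of these, 37 had at least 1 probe set with a single gene symbol, among 18193 genes of the array, and 62 probe sets carried their symbols. Each gene is given by its brightest probe set, judged by mean log2 signal across the arrays. The probe set of Isg15, a ubiquitin-like modifier, carries a second symbol, so it was not analysed here, and neither was Ifi44.

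Expression was measured in CD4 T cells of C57BL/6 mice aged 10 to 11 weeks with both Fur alleles flanked by loxP sites (Fur flox/flox), and they either lacked Cre (control) or carried a CD4-driven Cre transgene, CD4 cre (Furin cKO). Furin is a proprotein convertase of the secretory pathway, and this Cre acts from the thymus onward, in precursors of both CD4 and CD8 T cells. The activated group was sorted as CD4+CD62L+CD44- naive cells and stimulated in culture for 2 days on plate-bound antibodies to CD3 and CD28, each at 5 µg/ml. The memory group was CD4+CD62L-CD44+ and the regulatory group CD4+CD25+FoxP3+, and no culture is given for either. Each of the 6 combinations of population and genotype is 1 array, and the labels do not say how many mice gave the RNA or whether it was pooled. No value therefore has a replicate of its own group, and p-values measure only the spread between these arrays.

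Interferons are secreted warning signals of infection. Type I interferons bind IFNAR1 and IFNAR2, the kinases JAK1 and TYK2 act on STAT2, and a complex that holds STAT2 and IRF9 binds the interferon-stimulated response element (ISRE) of target genes. Interferon-gamma, a product of activated T cells, acts through its own receptor with JAK1 and JAK2, and its targets carry the gamma-activated site (GAS). Lymphocytes also carry transcripts of many of these genes without infection, maintained by low constant interferon signalling, and USP18 and SOCS proteins switch the pathway off.

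The promoters hold the motifs that the pathway's factors read, and 5 are printed here because their genes gave different patterns on the arrays: Ifit1 and Rsad2 were low in activated cells, Ifih1 and Gbp2 were high there, and Irf1 differed little between populations. Sequences are from RefSeq, assembly GRCm38.p6, 250 bases before to 50 bases after the gene's start, 5′ to 3′ on the strand of the gene. Capitals mark matches to an ISRE motif, GAAANNGAAA or its reverse complement TTTCNNTTTC, and in Irf1 to a GAS motif, TTCNNNGAA, which is its own reverse complement. Their positions are chr19:34640639-34640938 (plus strand) for Ifit1, chr12:26456403-26456702 (minus) for Rsad2, chr2:62646206-62646505 (minus) for Ifih1, chr3:142620413-142620712 (plus) for Gbp2 and chr11:53769764-53770063 (plus) for Irf1.
Ifit1: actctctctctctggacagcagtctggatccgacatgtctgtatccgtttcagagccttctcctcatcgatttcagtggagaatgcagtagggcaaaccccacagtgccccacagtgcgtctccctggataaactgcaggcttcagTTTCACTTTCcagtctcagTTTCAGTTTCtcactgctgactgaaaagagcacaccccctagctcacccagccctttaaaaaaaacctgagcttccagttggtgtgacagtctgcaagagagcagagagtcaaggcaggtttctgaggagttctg
Rsad2: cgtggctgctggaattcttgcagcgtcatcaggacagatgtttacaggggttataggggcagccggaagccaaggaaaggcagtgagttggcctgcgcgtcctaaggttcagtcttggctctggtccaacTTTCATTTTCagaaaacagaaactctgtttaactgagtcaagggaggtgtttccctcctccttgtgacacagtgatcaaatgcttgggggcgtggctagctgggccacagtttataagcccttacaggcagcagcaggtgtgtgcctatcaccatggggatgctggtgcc
Ifih1: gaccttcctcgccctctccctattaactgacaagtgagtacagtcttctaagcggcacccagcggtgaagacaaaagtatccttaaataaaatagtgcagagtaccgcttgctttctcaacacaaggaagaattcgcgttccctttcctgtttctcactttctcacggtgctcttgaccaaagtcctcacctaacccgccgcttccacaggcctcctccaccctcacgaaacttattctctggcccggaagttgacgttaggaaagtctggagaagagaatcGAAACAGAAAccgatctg
Gbp2: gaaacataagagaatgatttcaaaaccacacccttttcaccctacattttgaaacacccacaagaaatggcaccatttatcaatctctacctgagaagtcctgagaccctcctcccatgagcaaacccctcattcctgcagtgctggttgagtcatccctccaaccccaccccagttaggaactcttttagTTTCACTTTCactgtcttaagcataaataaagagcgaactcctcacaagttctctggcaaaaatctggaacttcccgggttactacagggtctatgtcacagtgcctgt
Irf1: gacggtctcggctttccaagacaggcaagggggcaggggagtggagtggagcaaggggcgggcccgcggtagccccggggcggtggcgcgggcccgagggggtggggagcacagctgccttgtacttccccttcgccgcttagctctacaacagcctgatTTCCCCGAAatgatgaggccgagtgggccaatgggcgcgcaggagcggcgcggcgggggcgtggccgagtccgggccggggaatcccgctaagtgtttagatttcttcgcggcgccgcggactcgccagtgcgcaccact
Ifit1 held 2 ISRE matches and Rsad2, Ifih1 and Gbp2 held 1 each, while Irf1 held no ISRE match and 1 GAS match. A window was at hand for 30 of the 39 listed genes. An ISRE match was present for 16 of the 30 (53.3%), against 3.99% of 27025 genes with such a window. A GAS match was present for 10 of the 30 (33.3%), against 9.55% of all genes. The genes Bst2, Eif2ak2, Igtp and Oas1a held both motifs, with overlapping matches in Bst2, and 8 held neither. Genes that were high and genes that were low in activated cells both carried the ISRE letters. A match is a run of letters, not a measured binding site.

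The signals had been scaled to a common trimmed mean before deposit. A floor was set at the 40th percentile of all arrays together, a signal of 47.6; any lower signal was set to this value ahead of the log2 step. Probe sets reaching it made up 49.4% and 49.8% on the activated arrays and 62.6% to 67.4% on the others, and the hybridisation control bioB (geometric mean) was 748.2 and 848.1 against 2160.0 to 4830.0. The actin 3' to 5' ratio, a sign of RNA quality, was 1.22 and 1.24 in activated, 1.93 and 1.56 in memory, and 1.35 and 1.36 in regulatory cells, so hybridisation and population cannot be told apart. The only Furin probe set read 515.8 and 468.3 in activated cells (control first), 547.2 and 410.0 in regulatory cells, but 647.4 and 2203 in memory cells, where the array labelled Furin cKO was the higher. Whether this probe set lies in the deleted stretch of the gene is unknown here, so it may check nothing about the deletion. The CD3 chain genes Cd3e, Cd3d and Cd3g, as well as Cd4, were above the floor on all 6 arrays. The only Foxp3 probe set read 27.0 and 11.9 in activated, 1358 and 1116 in memory, and 50.4 and 33.8 in regulatory cells, against the labels of both populations. Il2ra, which encodes CD25, was highest on the regulatory arrays (4277 and 3702, against 1190.3 and 626.8 in memory cells), as was Ikzf2, a factor abundant in regulatory cells (13901 and 15968, against 9419 and 8213). Population names are those of the labels throughout.

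Most interferon-stimulated genes were low in activated naive cells and many times higher in memory and regulatory cells, for which no culture is given. The largest differences belonged to Rtp4, Irf7, Xaf1, Ifit1 and Ifit3, while the sensor gene Ifih1 and the GTPase gene Gbp2 went the other way and Irf1 differed little. Of the 37 genes, 27 were called higher and 2 lower in memory than in activated cells, against 26.9% of 15811 genes called higher and 17.3% called lower. Between regulatory and activated cells 29 were called higher and 2 lower, against 26.5% and 18.1% of all genes. The median log2 difference of the 37 genes was 2.18 in both comparisons, against 0.21 and 0.23 over all genes tested. A call is an adjusted p under 0.05 in limma, with population and genotype as factors, all 6 arrays and Benjamini-Hochberg adjustment over the 15811 genes; the control and Furin cKO arrays of a population stand in for replicates. Both comparisons share the activated arrays.

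Both activated arrays lay below the other 4 arrays for 31 of the 37 genes, against 32.3% of all genes. They lay above the other 4 for Ifih1 and Gbp2, against 22.4% of all genes. The arrays overlapped for Mx2, Igtp, Irgm1 and Trim30a. The counts of 31 and 2 held with quantile normalization and with cyclic loess, where 24.5% of all genes lay below with either and 29.3% and 30.2% lay above.

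**Figure D1:**
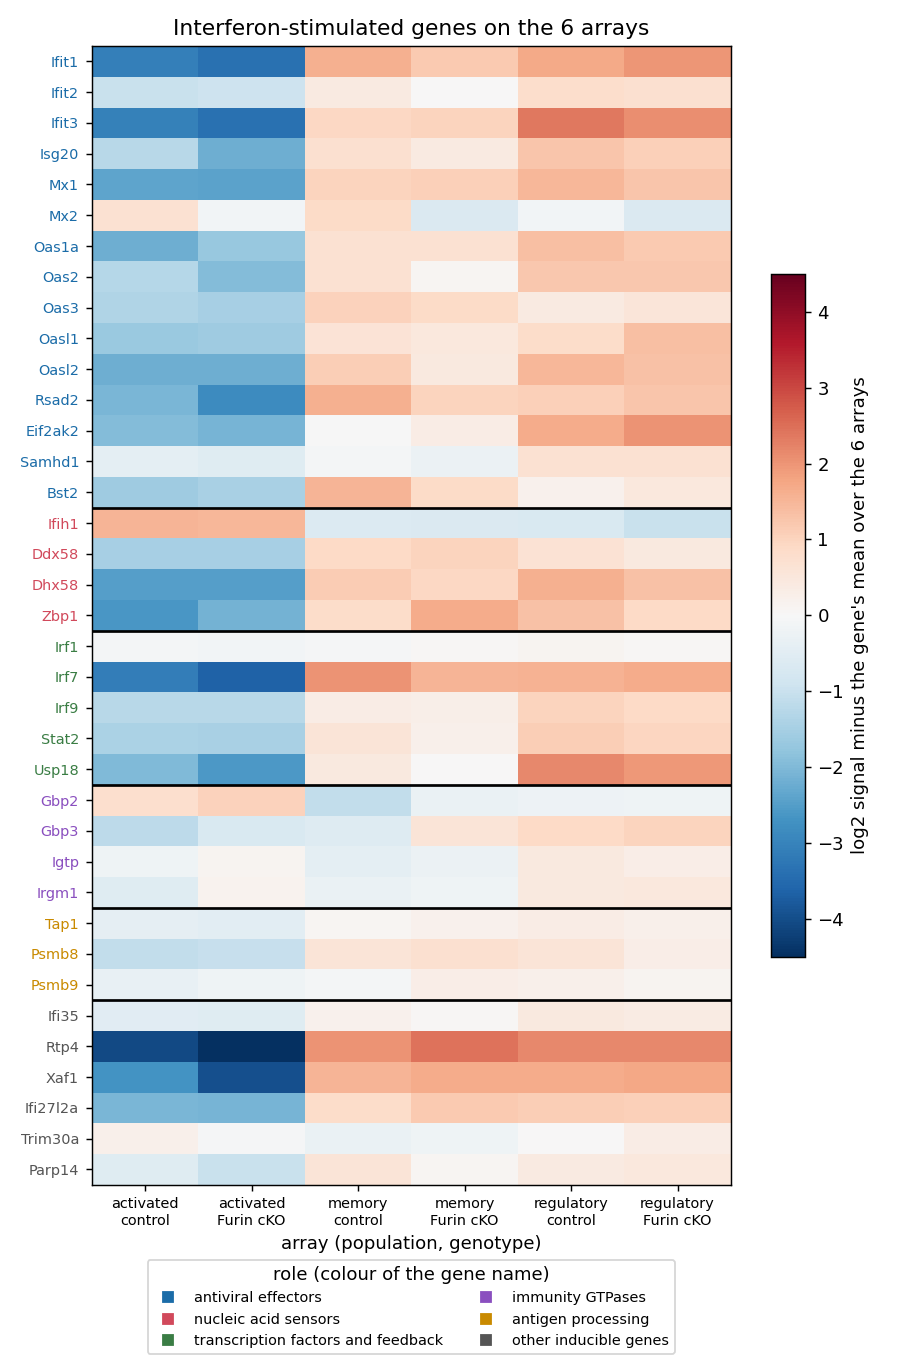
Log2 signal of each of the 37 genes (rows, grouped by role) on the 6 arrays (columns), minus the gene's own mean over the 6 arrays, with signals below 47.6 raised to that value. Both activated columns are blue for most genes; Ifih1 and Gbp2 are red there, and Irf1 is nearly white across all 6 arrays.

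The antiviral effectors act on viral RNA, translation or membranes. Of 15, 13 were called higher in memory and 14 in regulatory than in activated cells, with median log2 differences of 2.38 and 2.86 and none called lower. Ifit1 encodes a protein that binds viral RNA lacking host cap marks. Its signals were 56.9 and 32.5 in activated cells (control, then Furin cKO), 1457 and 1093 in memory cells, and 1569.5 and 1911 in regulatory cells. The Furin cKO activated array lay below the floor and all 4 memory and regulatory arrays were more than an order of magnitude above both activated ones. The fold was at least 24.3 for memory (log2 4.60, 95% CI 4.0 to 5.2, limma adjusted p = 0.00189) and at least 33.3 for regulatory cells (log2 5.06, CI 4.45 to 5.66, adjusted p = 0.00191). Its neighbour in function Ifit3 read 59.7 and 38.4, then 930.2 and 963.8, then 2538 and 2061. That was at least 17.8-fold higher in memory and at least 42.9-fold higher in regulatory than in activated cells (adjusted p = 0.00188 and 0.00182). Ifit2 was present in all cells, at 570.8 and 590.0 in activated, 1510.1 and 1151 in memory, and 1957 and 1898 in regulatory cells, and its log2 differences were 1.18 and 1.73 (adjusted p = 0.00871 and 0.00394).

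In its functional form Mx1 encodes a dynamin-like GTPase that blocks influenza and related viruses in the nucleus. Whether these mice make that form was not measured. The Mx1 probe set read 59.0 and 57.5 in activated, 621.6 and 651.5 in memory, and 864.2 and 731.1 in regulatory cells. The groups did not overlap, and the gene was 10.9-fold and 13.6-fold higher than in activated cells (limma adjusted p = 0.00188 and 0.00182). Its relative Mx2 did not share this pattern: 119.8 and 69.6 in activated, 136.6 and 26.1 in memory, and 69.6 and 34.0 in regulatory cells. Mx2 lay close to the floor throughout and was not called (log2 -0.18 and -0.67, adjusted p = 0.677 and 0.131), but was called lower in regulatory cells with quantile normalization (log2 -1.45) and with cyclic loess (-1.55). Rsad2 encodes viperin, which makes a chain-terminating nucleotide. It read 115.4 and 68.1, then 1468 and 962.3, then 1013 and 1165, 13.4-fold and 12.3-fold higher than in activated cells (adjusted p = 0.0024 and 0.00275).

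The oligoadenylate synthetases sense double-stranded RNA and activate RNase L. Oas1a, whose promoter window held 2 ISRE matches and 1 GAS match, read 349.0 and 485.7 in activated, 2545 and 2561 in memory, and 4039 and 3558 in regulatory cells. Its log2 differences from activated cells were 2.63 and 3.20 (limma adjusted p = 0.00261 and 0.00225). Oas2, Oas3, Oasl1 and Oasl2 were called higher in both comparisons as well, with log2 differences of 1.91 to 3.59 that are lower bounds for all but Oas3. Oasl2 was below the floor on both activated arrays and read 469.7 and 293.5 in memory and 611.7 and 537.4 in regulatory cells. Eif2ak2 encodes PKR, the kinase that stops translation on double-stranded RNA, and stepped up through the populations: 59.6 and 54.4 in activated, 229.7 and 289.6 in memory, and 739.7 and 928.9 in regulatory cells. The log2 differences from activated cells were 2.18 and 3.86 (adjusted p = 0.00279 and 0.00198). Another Eif2ak2 probe set read 145.2 and 82.3, then 69.3 and 231.2, then 143.6 and 135.9, with no such step. The remaining Eif2ak2 probe set did show a step, at 87.1 and 74.6, then 175.0 and 201.0, then 388.1 and 507.3.

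Isg20, an RNA exonuclease gene, read 480.0 and 247.2 in activated, 1865 and 1493 in memory, and 2654 and 2357 in regulatory cells (log2 2.28 and 2.86, limma adjusted p = 0.00421 and 0.00298). Bst2 encodes tetherin, which holds budding virions at the cell surface and is also a surface marker of plasmacytoid dendritic cells. It read 456.7 and 510.1 in activated, 4035 and 2544 in memory, and 1574 and 1921 in regulatory cells, with the memory control array the highest. Its log2 differences were 2.73 and 1.85 (adjusted p = 0.00401 and 0.0101). Samhd1, which removes the nucleotides that retroviruses need, was called in regulatory cells (log2 1.18, adjusted p = 0.0052) and not in memory cells (log2 0.33, adjusted p = 0.127), though it was called there with quantile normalization (log2 0.48, adjusted p = 0.0473) and with averaged probe sets. Its signals were 6252 and 5769.6 in activated, 7953 and 7149 in memory, and 13737 and 13536 in regulatory cells.

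The nucleic acid sensors divided. Ddx58 (RIG-I) and Dhx58 (LGP2), helicases that recognise viral RNA in the cytosol, were called higher in both memory and regulatory cells. So was Zbp1, which recognises left-handed nucleic acid and can start necroptosis. Ddx58 read 269.5 and 268.7, then 1403 and 1497, then 1201 and 1026 (log2 2.43 and 2.04, limma adjusted p = 0.00209 and 0.00261). Zbp1 read 173.6 and 239.7, then 1881 and 3356, then 2628 and 1985.5, 12.3-fold and 11.2-fold higher than in activated cells (adjusted p = 0.00328 and 0.00369). Dhx58 was below the floor on both activated arrays and read 502.9 to 804.2 on the other 4. Its brightest probe set gave log2 differences of at least 3.51 and 3.94. The dimmer ones, also below the floor on both activated arrays, gave 0.47 and 0.77 in memory and 1.77 and 0.54 in regulatory cells. Ifih1 encodes MDA5, the sister sensor of RIG-I for long double-stranded RNA, and was the member most raised in activated cells. It read 9063 and 8886 there, 2045 and 2001 in memory cells, and 1949 and 1561 in regulatory cells. No activated value came near the others, and the gene was 4.44-fold lower in memory and 5.15-fold lower in regulatory cells (log2 -2.15 and -2.36, adjusted p = 0.00223 and 0.00225).

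Of the 5 transcription factor and feedback genes, 4 were called higher in both comparisons. Irf7, the factor that amplifies type I interferon production, read 72.3 and 49.9 in activated, 2529 and 1829 in memory, and 1849 and 1982 in regulatory cells. It was 35.8-fold and 31.9-fold higher than in activated cells (limma adjusted p = 0.00188 and 0.00191). Stat2 and Irf9 encode parts of the complex that binds the ISRE. Stat2 read 105.9 and 103.4, then 422.4 and 328.8, then 610.4 and 555.0 (log2 1.83 and 2.48, adjusted p = 0.00277 and 0.00218). Irf9 read 899.3 and 900.5, then 2698 and 2544, then 4205 and 3935 (log2 1.54 and 2.18, adjusted p = 0.0029 and 0.00217). For both genes the regulatory arrays were highest and the genotypes lay close together.

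Usp18, the protease that removes ISG15 from proteins and blocks IFNAR2 signalling, read 195.5 and 130.5 in activated, 1062 and 782.2 in memory, and 3468 and 3024 in regulatory cells. It was 5.71-fold and 20.3-fold higher than in activated cells (limma adjusted p = 0.00209 and 0.00182). Irf1, an early factor of the interferon-gamma response, was the exception in this group. Its signals were 6463.5 and 6407 in activated, 6746 and 7189.8 in memory, and 7529.6 and 7252 in regulatory cells. The log2 difference was 0.11 for memory (CI -0.26 to 0.49, adjusted p = 0.569) and 0.20 for regulatory cells (CI -0.17 to 0.57, adjusted p = 0.312), intervals that allow changes of either sign. With quantile normalization Irf1 was called higher in regulatory cells, at a log2 difference of 0.47.

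The immunity GTPases coat and break the vacuoles of intracellular pathogens and answer strongly to interferon-gamma. They were mixed, with 1 of 4 called lower in memory cells, and 1 higher and 1 lower in regulatory cells. Gbp2 read 11659 and 14181 in activated, 3206 and 5604 in memory, and 5812 and 5988 in regulatory cells. It was 3.03-fold lower in memory and 2.18-fold lower in regulatory than in activated cells (limma adjusted p = 0.00838 and 0.0214), and its other probe set gave log2 differences of -1.95 and -1.53. Gbp3, of the same family, read 752.0 and 1064 in activated, 1143 and 2539 in memory, and 3142 and 3381 in regulatory cells, and was called higher in regulatory cells (log2 1.87, adjusted p = 0.0103) and missed the threshold in memory cells (log2 0.93, adjusted p = 0.0639), where it was called with the floor at the 60th percentile. Igtp and Irgm1 overlapped between the populations and were not called, except Irgm1 in regulatory cells with quantile normalization (adjusted p = 0.0464).

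Of the antigen-processing genes, Psmb8, a catalytic subunit of the immunoproteasome, was 3.30-fold higher in memory cells (limma adjusted p = 0.00367) and had a log2 difference of 1.52 in regulatory cells (adjusted p = 0.00495). It read 4761 and 4979 in activated, 15219.9 and 16919 in memory, and 15336 and 12729.6 in regulatory cells. A second, dimmer Psmb8 probe set gave smaller log2 differences of 0.2 and 0.41. Tap1, a chain of the peptide transporter, read 3407 and 3229.6, then 4808 and 5154, then 5688 and 5201, a smaller difference that was also called (log2 0.59 and 0.71, adjusted p = 0.0344 and 0.0203). The memory call of Tap1 was lost with the floor at the 20th percentile (adjusted p = 0.0836), with averaged probe sets (0.28) and whenever any 1 array was left out (0.0551 to 0.221), and its regulatory call with the floor at the 20th percentile (0.0535), with averaged probe sets (0.359) and without either activated or either regulatory array (0.095 to 0.16). Psmb9, another immunoproteasome subunit, was not called (log2 0.37 and 0.43, adjusted p = 0.18 and 0.13), except in regulatory cells with quantile normalization (adjusted p = 0.0367).

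Of the other inducible genes, 5 of 6 were called higher in both comparisons. Rtp4, a chaperone of surface receptors, had the largest difference of the whole set. It read 76.7 and 2.5 in activated, 5084 and 6879 in memory, and 5669.5 and 5654 in regulatory cells, at least 97.9-fold and 93.7-fold higher than in activated cells (limma adjusted p = 0.00188 and 0.00194). A second, dimmer Rtp4 probe set gave log2 differences of 0.93 and 1.46, in the same direction and much smaller. Xaf1, a pro-apoptotic gene, read 146.8 and 61.9, then 2788 and 3047, then 3046 and 3228.5, 30.6-fold and 32.9-fold higher (limma adjusted p = 0.00268 and 0.00276). A second, dimmer Xaf1 probe set, below the floor on both activated arrays, gave log2 differences of at least 1.64 and 1.66, against 4.93 and 5.04 for the brightest. Ifi27l2a, a mitochondrial protein gene widely used as a marker of interferon exposure, read 2440.5 and 2389 in activated, 17910.2 and 22885 in memory, and 22266 and 21479.9 in regulatory cells, 8.38-fold and 9.06-fold higher (adjusted p = 0.00204 and 0.00205). Trim30a, a regulator of innate signalling, was not called by its brightest probe set, and its other probe set was the only 1 of 24 other probe sets above the floor that went the opposite way between memory and activated cells: 1336 and 1145 in activated against 3965 and 3203 in memory cells.

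**Figure D2:**
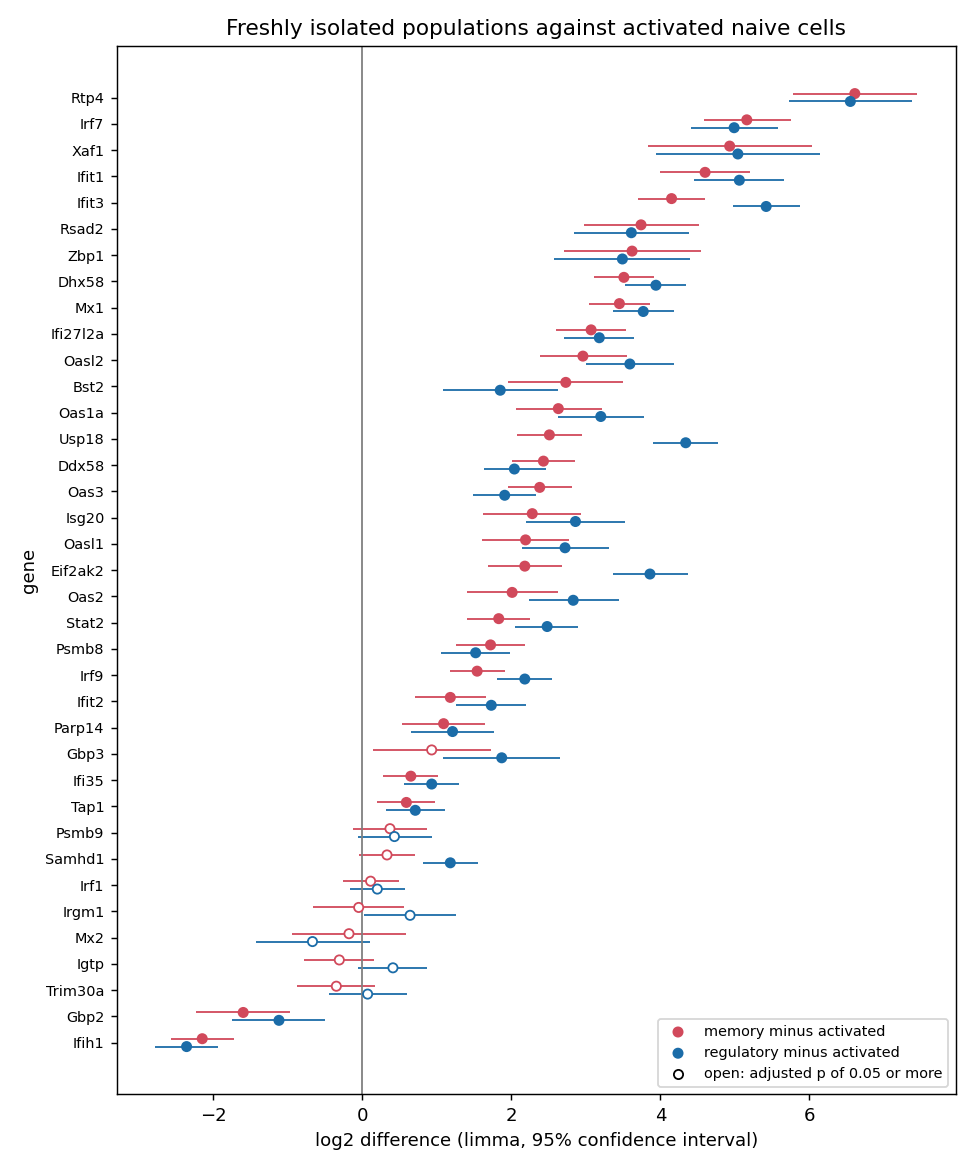
Log2 difference of each of the 37 genes between memory and activated and between regulatory and activated cells (points) with the 95% confidence interval from limma (lines); filled points have an adjusted p under 0.05. Rtp4, Irf7, Xaf1, Ifit3 and Ifit1 lie farthest to the right, Irf1 lies near 0, and Ifih1 and Gbp2 lie to the left with both points filled.

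These calls rest on few arrays. Without the memory control array 17 calls between memory and activated cells were made in place of 29, and without either regulatory array none of the 31 calls of regulatory against activated cells was made, with lowest adjusted p of 0.0722 and 0.0763 and 30 genes at an unadjusted p under 0.05 each time; the array left alone in its population is taken to vary like the others. The scaling also matters for size: over all genes 60.8% of the calls between memory and activated cells were higher, and 48.5% with quantile normalization and 47.3% with cyclic loess. For regulatory against activated cells the shares were 59.4%, 44.8% and 43.4%. The median of all genes moved to 0.00 with either scaling, and that of the 37 genes to 1.54 and 1.61 for memory and to 1.82 and 1.91 for regulatory cells, with 0 called members changing direction.

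**Figure D3:**
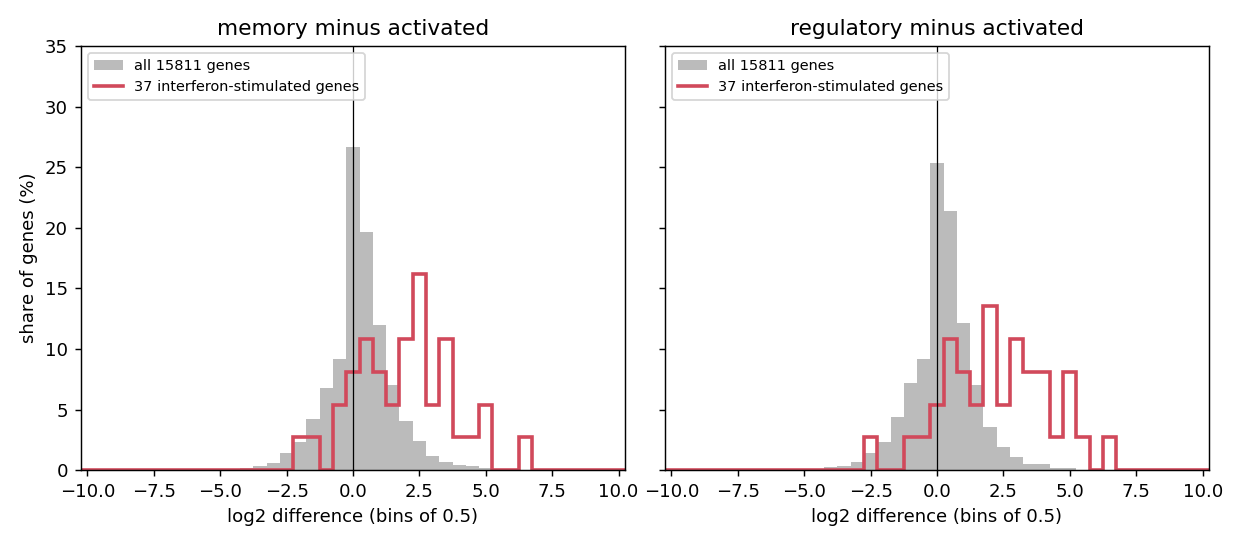
Share of genes in bins of 0.5 of the log2 difference, for all 15811 genes tested (grey) and the 37 interferon-stimulated genes (red), memory minus activated on the left and regulatory minus activated on the right. The red outline is spread to the right of the grey bars, with medians of 2.18 against 0.21 and 2.18 against 0.23.

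Memory and regulatory cells differed much less. None of the 37 genes was called by limma in either direction, and neither was any of the 15811 genes (0% higher and 0% lower); at an unadjusted p under 0.05, 13 members were higher and 2 lower in regulatory cells, against 1539 and 1820 of all genes. The median log2 difference was 0.42, against -0.01 over all genes. The 3 largest were Usp18 at 1.83 (3.55-fold, adjusted p = 0.0587), Eif2ak2 at 1.68 (3.21-fold, adjusted p = 0.0668) and Ifit3 at 1.27 (2.42-fold, adjusted p = 0.0738), with both regulatory arrays above both memory arrays for each. Bst2 was the lowest at -0.88 (adjusted p = 0.195). Those 3 genes and Samhd1 were called when genotype was left out of the model.

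The pathway's inputs were read from lists of related genes. Beside the counts of these lists, here and below, 26.9% of all genes were called higher in memory and 26.5% in regulatory than in activated cells. Lower calls made up 17.3% and 18.1% of all genes. Of 11 interferon ligand genes, 8 had a probe set, and 3 of these were above the floor on some array: Ifng, Ifna1 and Ifnab. Ifng encodes interferon-gamma and read 256.6 and 1695 in activated, 1114 and 4675 in memory, and 164.4 and 157.0 in regulatory cells; its Furin cKO array was the higher in activated and in memory cells, and both values were close in regulatory cells. Of 10 measured receptor and JAK-STAT genes, 6 were called higher and 1 lower in memory than in activated cells, and 6 higher and 1 lower in regulatory cells. Ifnar2, the signalling chain of the type I receptor, read 307.3 and 351.3, then 1991 and 1967, then 1394 and 1544, whereas Ifnar1 had a log2 difference of 0.05 in memory cells. Ifngr1 (log2 2.45 and 2.97), Jak1 (2.17 and 2.10) and Tyk2 (1.76 and 1.66) were among those called higher. Jak2, the kinase of the interferon-gamma receptor, was lower: 10689.8 and 12499.7 in activated, 5497 and 4086 in memory, and 2901 and 3044 in regulatory cells.

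Of 12 feedback regulators, 5 were called higher and 2 lower in memory cells, and 5 higher and 4 lower in regulatory cells. Their median log2 differences of 0.34 and 0.25 lay near those of all genes, 0.21 and 0.23. With quantile normalization the memory counts were 3 and 0, and the difference of Ube2l6 changed sign and was no longer called. Socs3, a suppressor of cytokine signalling, read 95.4 and 109.4 in activated, 1552 and 3284 in memory, and 4170.4 and 3306 in regulatory cells. Uba7, the enzyme that activates ISG15, had log2 differences of 3.38 and 3.42, and Socs1 of 1.66 and 2.12. Of 10 other sensors and adaptors, 5 and 4 were called higher and none lower, among them Tlr7 (log2 1.87 and 2.92); with cyclic loess 2 were called lower in each comparison. Of 5 other interferon regulatory factors, 2 were called higher and 1 lower in memory cells and 2 in each direction in regulatory cells. Irf4, a factor induced by the T cell receptor, had log2 differences of -3.05 and -2.50, with 10010.7 and 9383 in activated against 1318 and 1043 in memory and 1716 and 1719 in regulatory cells. Irf8, a factor of dendritic and B cells as well as T cells, had a log2 difference of -3.35 in regulatory cells (limma adjusted p = 0.00821) and missed the threshold in memory cells (-1.32, adjusted p = 0.0908).

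A further list of 53 inducible genes outside the 39 gave 43 genes in the fit, with 31 called higher and 5 lower in memory cells (median log2 1.36) and 30 higher and 3 lower in regulatory cells (1.49). Ly6e, a surface protein that limits coronavirus entry, had log2 differences of 4.36 and 4.0, Epsti1 of 3.92 and 3.39 and the chemokine gene Cxcl10, below the floor on both activated arrays, of at least 3.88 and 3.15. Pnpt1, a mitochondrial RNA exonuclease gene, was lower at -1.27 and -1.04, as was Ifitm2, a block to virus entry, at -1.18 and -1.50; the memory call of Ifitm2 was lost with quantile normalization. Of 13 class I presentation genes, 9 were called higher and 3 lower in memory, and 8 higher and 4 lower in regulatory cells. H2-K1 (log2 2.15 and 1.35) and B2m (1.96 and 1.26) encode chains of the class I molecule, while the peptide trimming gene Erap1 was lower (-1.45 and -1.33).

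Markers of other cells also differed between the populations, not always in the direction of the interferon-stimulated genes, and their part in the differences above was not tested. Of 8 plasmacytoid dendritic cell markers, all were at or above the floor on the memory and regulatory arrays and 4 or 5 on the activated arrays. Their summed signal was 7069.5 and 10225 in activated (where Irf8 alone read 5927 and 9084), 21378 and 13621 in memory, and 4031 and 3030.3 in regulatory cells. Siglech, their defining receptor gene, read 5.8 and 4.5, then 2943 and 1111, then 66.3 and 95.3. Klk1 of the same list went the other way, at 701.1 and 735.3, then 291.3 and 289.6, then 310.9 and 225.9. Tcf4 read 191.2 and 187.9, then 1381 and 533.2, then 151.1 and 103.1, so it was lower in regulatory than in activated cells. Of 12 dendritic cell, monocyte and macrophage markers, 5 or 6 reached the floor on the activated arrays and 11 or 12 on the others, with sums of 1619.7 and 1618.5, then 60609.5 and 31282, then 8335 and 8083. The 7 B cell markers summed to 2601 and 2502, then 15639 and 13239.8, then 18636 and 16184.3. The 5 plasma cell markers summed to 4209.8 and 4188.9, then 11830.1 and 24647, then 23603 and 15284. In bulk RNA a change in the share of cells and a change in RNA per cell cannot be told apart.

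Between genotypes the interferon-stimulated genes moved little. Across the 3 populations none of the 37 was called by limma, as none of the 15811 genes was (0%), with 444 of all genes at an unadjusted p under 0.05. In Furin cKO 12 members had a higher and 25 a lower fitted value, against 7774 and 8037 of all genes. The members had a median log2 difference of -0.07 and a lowest limma adjusted p of 0.819. Mx2 (log2 -0.95) and Usp18 (log2 -0.41) had an unadjusted p under 0.05 (limma adjusted p = 0.819 for both), and both were lower on the Furin cKO array of each population. The spread behind this test is that of the genotype difference from population to population. Within a population there is 1 array per genotype and no test.

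**Figure D4:**
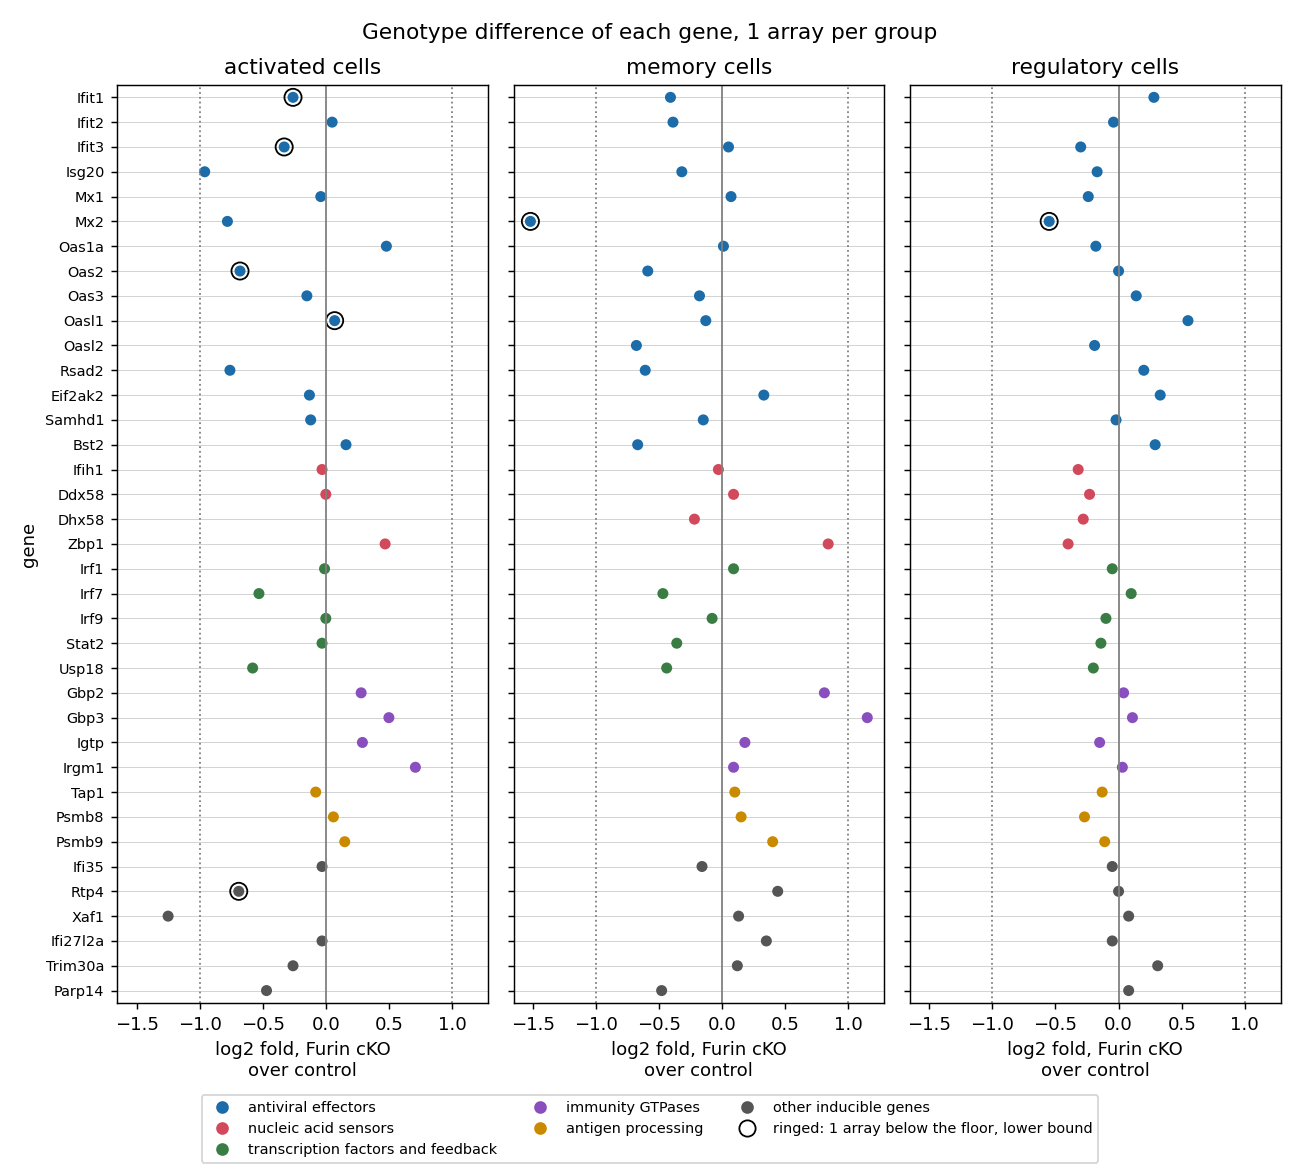
Log2 fold of each of the 37 genes, Furin cKO array over control array, in activated, memory and regulatory cells (1 array per group, no error); dotted lines mark 2-fold and rings mark lower bounds. Only Xaf1 in activated cells and Gbp3 and Mx2 in memory cells lie past a dotted line, and no gene does in regulatory cells.

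In activated cells 35 members were measured, 30 of them above the floor on both arrays. Of the 35, 12 were higher and 23 lower in Furin cKO, with 48.9% of all genes measured higher. The median log2 fold of the members was -0.03 against 0.00 over all genes. No member was 2-fold higher and Xaf1 alone was 2-fold lower, against 0.39% and 0.372% of all genes measured. Xaf1 was 2.37-fold lower, with 146.8 in control against 61.9 in Furin cKO. By the same order of values, Isg20 (480.0 against 247.2, log2 -0.96), Mx2 (119.8 against 69.6, -0.78) and Rsad2 (115.4 against 68.1, -0.76) followed, of the genes with neither array below the floor; Rsad2, Xaf1 and Mx2 lay near it. Rtp4 (76.7 against 2.5) has no place in that order, since its log2 fold of -0.69 is only a bound, and with quantile normalization or cyclic loess it was past 2-fold lower. The 4 largest increases were Irgm1 (1327 against 2167, log2 0.71), Gbp3 (752.0 against 1064, 0.50), Oas1a (349.0 against 485.7, 0.48) and Zbp1 (173.6 against 239.7, 0.47). All 4 immunity GTPases were higher in Furin cKO, with a median of 0.40, while 10 of 14 antiviral effectors were lower, with a median of -0.14.

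In memory cells 18 members were higher and 19 lower, with 49.2% of all genes measured higher. The median log2 fold of the members was -0.03 against -0.01 over all genes. Of the members, Gbp3 alone was 2-fold higher and Mx2 alone 2-fold lower, against 5.62% and 3.64% of all genes. Gbp3 was 2.22-fold higher, with 1143 in control against 2539 in Furin cKO. Zbp1 (1881 against 3356, log2 0.84), Gbp2 (3206 against 5604, 0.81) and Rtp4 (5084 against 6879, 0.44) followed, and the other probe sets of Zbp1 and Gbp2 gave 1.16 and 0.40. Mx2 read 136.6 and 26.1, at least 2.87-fold lower. Oasl2 (469.7 against 293.5, log2 -0.68), Bst2 (4035 against 2544, -0.67), Rsad2 (1468 against 962.3, -0.61) and Oas2 (297.2 against 197.7, -0.59) were the next lowest, and Irf7 (2529 against 1829, -0.47) was lower too. By role, 11 of 15 antiviral effectors were lower (median -0.32) and 4 of 4 GTPases higher (median 0.49). The same split of 11 and 4 was seen with quantile normalization and cyclic loess. With averaged probe sets 10 antiviral effectors were lower and 5 higher, and all 4 GTPases were higher. The plasmacytoid dendritic cell sum was 21378 in control and 13621 in Furin cKO, and the dendritic and myeloid sum was 60609.5 and 31282. Both sums went in the direction of Bst2 and Irf7, while Ifng read 1114 and 4675, in the direction of the GTPases. Of the markers summed, Ccr9 (5955.9 and 6392.9), Itgam (44.8 and 63.9) and Lyz2 (917.1 and 1026) were higher in Furin cKO, and the others were lower. The NK cell sum of 6639 and 3049 was mostly Tyrobp (6299 and 2680), which the dendritic and myeloid sum also holds. Of the other NK cell markers, Ncr1 (75.8 and 89.3) and Klra8 (2.3 and 103.9) were higher in Furin cKO and Eomes (261.6 and 175.8) was lower. Other sums were higher on the Furin cKO memory array: granulocytes 2114 and 8050 (control first), plasma cells 11830.1 and 24647, and recent activation and division 4319 and 9195. Some markers within these lists were lower there. These were Mmp9 (1396.1 and 665.9) of the granulocyte list and Sdc1 (98.8 and 71.1) and Xbp1 (8596 and 6326.6) of the plasma cell list. In the last list Myc (952.8 and 780.0) and Tfrc (1775.5 and 1501.2) were lower. All other markers of these lists were higher. The actin ratio was 1.93 and 1.56. The part of any of these in the genotype differences was not tested.

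In regulatory cells 14 members were higher and 23 lower, with 48.0% of all genes measured higher. The median log2 fold of the members was -0.05 against -0.01 over all genes. No member was 2-fold apart, against 3.14% of all genes higher and 2.12% lower, and none of the 36 above the floor on both arrays was 1.5-fold apart. Mx2 read 69.6 and 34.0, the latter below the floor, so its fold was at least 1.46 lower; with the floor at the 20th percentile it was past 2-fold. The largest increases were in Oasl1 (265.7 against 389.1, log2 0.55), Eif2ak2 (739.7 against 928.9, 0.33), Trim30a (3413.5 against 4239.8, 0.31) and Bst2 (1574 against 1921, 0.29). The largest decreases above the floor were in Zbp1 (2628 against 1985.5, -0.40), Ifih1 (1949 against 1561, -0.32), Ifit3 (2538 against 2061, -0.30) and Dhx58 (804.2 against 664.2, -0.28). The other Zbp1 probe set read the opposite way, at 0.33, as did both other, dimmer Dhx58 probe sets, at 0.70 and 0.96. The other Eif2ak2 probe sets gave -0.08 and 0.39. The GTPases had a median of 0.04 and the antiviral effectors of -0.02, so the split seen on the memory arrays was not seen here; the difference between the populations was not tested.

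Probe sets of 1 gene often disagreed in sign between genotypes. They rarely did between activated cells and the other populations, where some could not. Of 24 other probe sets in 15 genes, those of the opposite sign to the brightest numbered 5 between genotypes in activated cells, 8 in memory cells and 11 in regulatory cells. In activated cells, other probe sets of Ddx58, Dhx58, Rsad2, Rtp4, Tap1 and Xaf1 were below the floor on both arrays and could not disagree. The genotype counts therefore do not compare the populations. Between memory and activated cells 1 was opposite, and between regulatory and activated cells 0 were. The probe sets below the floor on both activated arrays could not disagree here either. They could only be equal or higher in memory and regulatory cells, as the brightest probe sets of their genes were.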

How the data were processed

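The deposited table holds linear intensities (signals), 1 column per sample; the submitters' processing notes name MAS5, with no version, settings or genome build. Per the labels' protocols, biotinylated cRNA was made from 5 µg total RNA. Probe sets with 1 symbol in the platform annotation were used, and each gene took its probe set of highest mean log2 signal. Signals under the pooled 40th percentile were raised to it, and genes under it on both arrays of a genotype comparison were left out; a fold against such an array is a lower bound, written "at least". Log2 folds are Furin cKO minus control, and population differences are the first-named minus the second. The model (population plus genotype, 2 residual degrees of freedom) was fitted in R 4.3.3 by limma 3.58.1 (lmFit and eBayes), p-values were adjusted by Benjamini-Hochberg over 15811 genes, and the code was tested on simulated data. For arrays, their number limits the precision.

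Values on all 6 arrays were given for the 4 largest genotype differences each way per population, lower bounds past 2-fold, the 5 largest called differences each way per population contrast and 12 genes listed by name, of which Isg15 was not analysed; others were added to fill out a role. The members, related lists, markers and this rule were chosen with earlier results of these data known. Alternatives were quantile normalization, cyclic loess, floors at the 20th and 60th percentiles, averaging all probe sets of a gene, a 1.5-fold threshold, arrays or populations left out, and no genotype term.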

Additional observations from a re-analysis of the deposited data

How the results depend on the processing

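No called member of either comparison with activated cells changed direction under the scalings tried. Counts that moved were as follows. In activated cells the count of members past 2-fold between genotypes was 1; it was 2 with quantile normalization and 2 with cyclic loess (Rtp4 and Xaf1), 3 with a floor at the 20th percentile, 0 with a floor at the 60th percentile, 0 when the probe sets of a gene were averaged and 7 at 1.5-fold. In memory cells it was 2, then 1 with the floor at the 60th percentile, 3 with averaged probe sets and 8 at 1.5-fold; in regulatory cells it was 0, and 1 (Mx2) with the floor at the 20th percentile. Calls for genotype across populations were 0 under every alternative. Leaving out 1 array at a time gave 17 to 23 calls between memory and activated cells, 0 to 30 between regulatory and activated cells, and 0 between regulatory and memory cells; other settings gave 27 to 30 and 30 to 35. For regulatory against memory cells the floor at the 60th percentile gave 5 calls and the model without genotype 4. The cause was not tested. No paired analysis was possible because the labels give no replicate numbers and each group is 1 array. Members near the floor on the activated arrays (6 below it on the Furin cKO and 3 on the control array) have folds that are bounds.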
